A study of Danio rerio with 30 samples.

Results

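Spleen transcripts of 15 libraries from zebrafish given lipopolysaccharide (LPS) were compared with those of 15 libraries from control zebrafish across 3 embryonic incubation temperatures. Temperature was a block, and the aim was genes that differed between LPS and control fish in one direction whatever the incubation temperature. All 30 of the 30 libraries of the series entered the comparison. Of 17841 tested genes, 3415 (19.1%) had a fitted log2 fold change of one sign at 24, 28 and 32 °C. These were 1160 genes (6.5%) higher with LPS at each temperature and 2255 (12.6%) lower at each temperature. The count was not tested, and genes without an LPS effect can also have one sign at all 3 temperatures. Signs agreed in 36.5% of genes between 24 and 28 °C, in 55.3% between 24 and 32 °C and in 46.6% between 28 and 32 °C. The count is therefore not a number of genes that respond to LPS. Of these 3415 genes, 2 passed the test of the shared effect, both higher with LPS, and both encode repressors of the circadian clock.

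The fish were of the AB strain and 100 days old. They differed in the temperature of embryonic incubation (24, 28 or 32 °C), and all adults were held at 28 °C with 12 h of light and 12 h of dark. LPS fish received 2 µl of Pseudomonas aeruginosa LPS at 50 mg/ml into the body cavity and were sampled 12 h later. Neither a control injection, nor sex, nor the hour of the light cycle at sampling is given in the labels. In the comparisons below LPS therefore cannot be told apart from handling or from the hour of sampling. Each of the 6 groups of temperature and treatment held 5 libraries of polyadenylated RNA, numbered as separate samples. That each number is a separate fish is not stated, and p-values reflect only how far these samples differ.

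LPS is the outer membrane lipid of Gram-negative bacteria. In mammals it is sensed by TLR4 and leads through NF-kB to cytokines, chemokines and acute phase proteins, whereas the TLR4 relatives of zebrafish do not sense it in the same way and fish tolerate high doses. The spleen filters blood and stores red cells, macrophages and lymphocytes. The circadian clock is a loop in which CLOCK and BMAL proteins activate PER and CRY genes, whose products repress that activation. In zebrafish the clocks of peripheral tissues are themselves light-sensitive: light directly induces PER2 and some CRY genes, together with photolyases and other DNA repair genes, and TEF transcription factors act on the promoters of many of these.

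Library totals ranged from 14840723 to 23401031 counts. The libraries carried markers of spleen cells, with erythroid markers summing to between 35180 and 141240 CPM, the count scaled to a fixed library size, here the library total, and macrophage markers to between 1601 and 5180 CPM. Acinar pancreas markers ranged from 178 to 36670 CPM; the pancreas lies close to the spleen in this fish. In 24 °C control replicate 4 ovary markers summed to 2947 CPM, against at most 27.6 CPM in any other library, and the library also had the highest acinar pancreas sum. Liver markers summed to 3799 CPM in 32 °C control replicate 8, against at most 792 CPM elsewhere, and 32 °C control replicate 2 had counts for 28134 genes, against at most 22887 elsewhere. In bulk tissue, fewer cells of a type and less RNA per cell cannot be told apart.

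PER2 (ENSDARG00000034503), the light-inducible clock repressor, was higher in LPS fish at every incubation temperature. At 24 °C it stood at 18.9, 29.0, 24.4, 18.5 and 27.8 CPM in controls and at 41.7, 63.6, 57.5, 57.9 and 67.4 CPM in LPS fish (CPM of single genes are scaled to the TMM library size). At 28 °C the controls had 24.8, 26.5, 22.3, 46.9 and 32.1 CPM and the LPS fish 83.0, 80.2, 63.2, 107 and 53.3 CPM. At 32 °C the controls had 23.7, 25.5, 29.8, 25.7 and 36.3 CPM and the LPS fish 77.0, 107, 66.2, 106 and 55.1 CPM. The groups did not overlap at any temperature, and 14 of the 15 LPS libraries lay above the highest of all 15 controls, 28 °C control replicate 5. PER2 was the 1 gene of 17841 (0.00561%) with no overlap at each of the 3 temperatures. Its log2 fold change over all temperatures was 1.39 ± 0.13 (SE, n = 15 against 15, adjusted p = 8.41e-08, edgeR's quasi-likelihood test with Benjamini-Hochberg adjustment). At 24, 28 and 32 °C the log2 fold change was 1.28 ± 0.22, 1.34 ± 0.22 and 1.55 ± 0.22, and the joint test of a difference between the temperatures did not pass (adjusted p = 0.837).

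CRY1 (ENSDARG00000045768), a cryptochrome that represses the clock's activators, was also higher in LPS fish. In 24 °C fish it measured 50.5, 62.0, 37.1, 55.0 and 34.1 CPM in controls and 74.8, 102, 79.5, 132 and 104 CPM with LPS. In 28 °C fish it measured 49.2, 43.9, 59.9, 89.0 and 63.8 CPM in controls and 153, 112, 139, 195 and 116 CPM with LPS. In 32 °C fish it measured 102, 85.1, 60.1, 96.5 and 86.4 CPM in controls and 90.2, 123, 108, 221 and 108 CPM with LPS. The groups were apart at 24 and 28 °C and overlapped at 32 °C, where the controls ran from 60.1 to 102 CPM, and 11 of 15 LPS libraries exceeded every control. The log2 fold change was 0.96 ± 0.14 (adjusted p = 0.00175, edgeR), with 1.04, 1.23 and 0.59 at 24, 28 and 32 °C and no difference between temperatures past the threshold (adjusted p = 0.460). The call was lost without the 24 °C fish (log2 fold change 0.90, adjusted p = 0.0583) and without the 28 °C fish (0.84, adjusted p = 0.153). The symbol CRY1 belongs to 2 tested genes, and the other one (ENSDARG00000011583) had a log2 fold change of 0.05 ± 0.18 and mixed directions. How the authors' counting treated reads shared by such paralogs is not given in the sources used here.

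**Figure D1:**
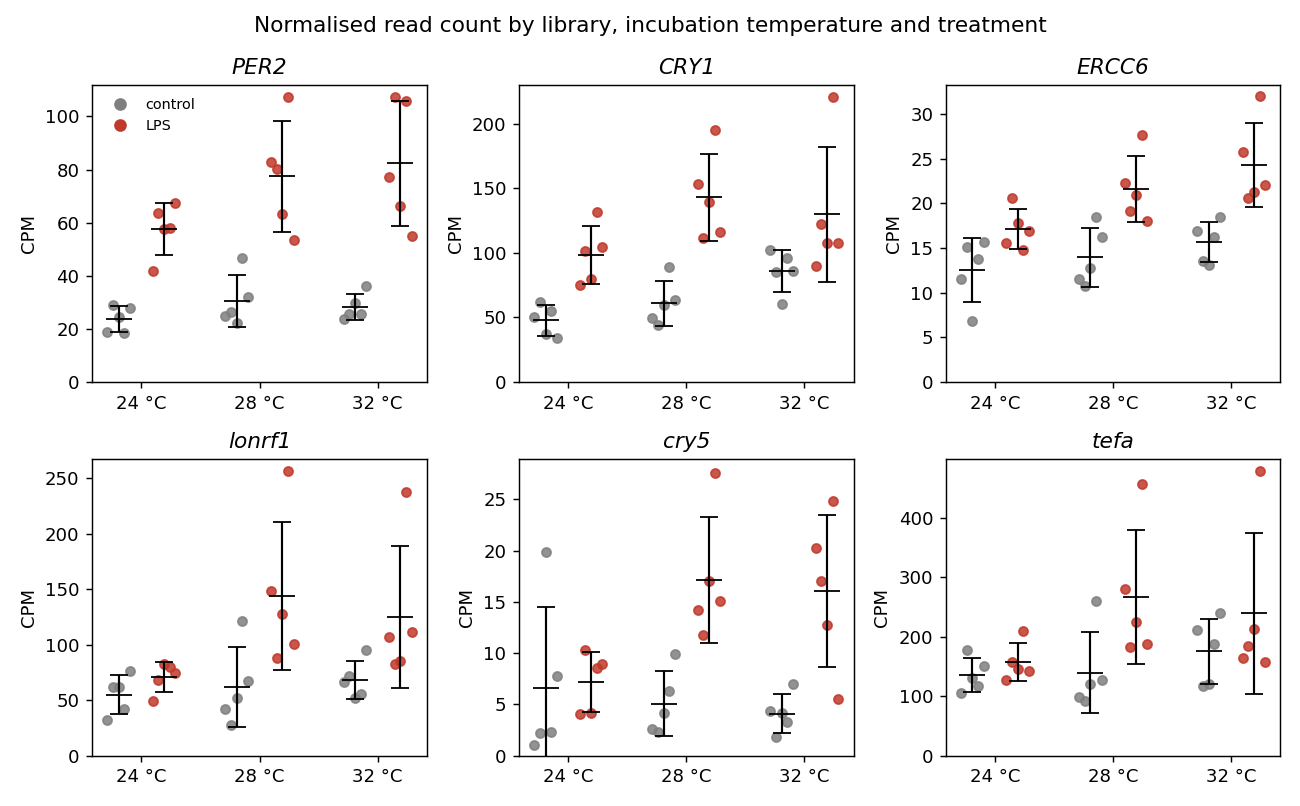
Normalised read count (CPM, linear axis from 0) of 6 genes in every library, by incubation temperature; grey points are control fish, red points LPS fish, and the black marks give the mean ± SD of the 5 libraries (a bar reaching below 0 is cut at the axis). PER2 separates the treatments at all 3 temperatures, whereas cry5 has 1 control library at 24 °C, replicate 4 with 19.8 CPM, above all LPS libraries of that temperature.

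The shared test called 2 of 17841 genes (0.0112%) with edgeR, both higher, and 0 lower (0%). DESeq2 called 4 of 17403 (0.023%), adding ERCC6 higher and GYS2 lower, and limma voom 4 of 17841 (0.0224%), adding ERCC6 and cry5, both higher. GYS2 (ENSDARG00000004904), a glycogen synthase of liver in mammals, had a log2 fold change of -3.22 ± 0.93 with edgeR (-5.20, -0.63 and -4.05 by temperature, adjusted p = 0.897). At an unadjusted p under 0.05 there were 792 genes (4.44%), 237 higher (1.33%) and 555 lower (3.11%), where 892 are expected with no effect. Of these 792 genes, 605 kept one direction at all temperatures, 175 higher and 430 lower, and 187 did not.

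ERCC6 (ENSDARG00000075612), a helicase of transcription-coupled DNA repair, followed PER2 and CRY1 in the order of p. It read 11.5, 15.1, 6.78, 13.7 and 15.6 CPM in 24 °C controls and 15.6, 20.5, 17.8, 14.8 and 16.9 CPM in 24 °C LPS fish. The 28 °C controls read 11.57, 10.7, 12.7, 18.5 and 16.3 CPM and the LPS fish 22.3, 19.2, 20.9, 27.6 and 18.1 CPM. The 32 °C controls read 16.9, 13.6, 13.1, 16.2 and 18.4 CPM and the LPS fish 25.7, 20.6, 21.3, 32.0 and 22 CPM. The groups overlapped at 24 and 28 °C and not at 32 °C, with 10 of 15 LPS libraries above every control. The log2 fold change of 0.57 ± 0.11 (0.45, 0.63 and 0.64 by temperature) missed the threshold with edgeR (adjusted p = 0.0884) and passed it with DESeq2 (0.58, adjusted p = 0.00144) and limma voom (0.51, adjusted p = 0.0256). It also passed in 8 of 30 fits that each left out 1 library, and in 11 of 45 settings of the processing in all. With edgeR and library totals in place of TMM it missed the threshold (0.47, adjusted p = 0.560). The same held without the 28 °C libraries (0.56, adjusted p = 0.272) and without the 32 °C libraries (0.54, adjusted p = 0.979). Without the 24 °C libraries it passed (0.62, adjusted p = 0.0487).

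The genes whose log2 CPM most resembled PER2 over the 30 libraries were CRY1 (Pearson r = 0.81), ERCC6 (0.80), lonrf1 (0.78), cry5 (0.78) and tefa (0.68). With the mean of each group removed, r was 0.44, 0.48, 0.67, 0.55 and 0.67 in the same order. The genes most like CRY1 were ERCC6 (0.82), tefa (0.81), PER2 (0.81), lonrf1 (0.79) and lonrf4 (0.77). These values describe libraries that share their preparation and scaling and are given without a test. The highest CPM of CRY1, ERCC6, lonrf1 and tefa lay in 28 °C LPS replicate 4 and 32 °C LPS replicate 4. TMM factors were lowest in these libraries, at 0.73 and 0.71, and a low factor raises every CPM of a library. The part of this scaling in the correlations was not tested. lonrf1 (ENSDARG00000078567), a RING finger protein gene, had a median of 61.5 CPM in controls (27.5 to 121) and 87.9 CPM in LPS fish (49.4 to 256), with a log2 fold change of 0.82 ± 0.20 (0.37, 1.22 and 0.87 by temperature, adjusted p = 0.897). tefa (ENSDARG00000039117), one of the TEF factors, had a median of 127 CPM in controls (91.8 to 259) and 185 CPM in LPS fish (127 to 479), with a log2 fold change of 0.53 ± 0.19 (adjusted p = 0.897). For both genes the LPS and control libraries overlapped at each temperature.

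Of 41 tested core clock genes, 2 were called higher and 0 lower, against 0.0112% of all genes, and 5 had an unadjusted p under 0.05, all of them higher, against 1.33% of all genes. The list was chosen with earlier results of these data known, so these counts can partly restate that choice and are given as description only. At all temperatures 5 were higher (PER2, CRY1, tefa, NFIL3 and CSNK1D) and 0 lower, so that 12.2% of the list kept one direction, against 19.1% of all genes. The list's median log2 fold change was 0.01, against -0.04 over all tested genes, and with library totals in place of TMM it was -0.11 against -0.14, with 4 members higher and 11 lower at all temperatures. The activators of the loop showed no shared direction, with log2 fold changes of -0.19 ± 0.19 and -0.33 ± 0.33 for the pair of CLOCK genes (ENSDARG00000003631 and ENSDARG00000011703) and 0.04 ± 0.20 and -0.37 ± 0.28 for the pair of BMAL1 genes (ENSDARG00000006791 and ENSDARG00000035732). The cryptochromes cry3a (0.56 ± 0.24, adjusted p = 0.897) and cry3b (0.62 ± 0.27, adjusted p = 0.897) had values above 0 at 28 and 32 °C and below 0 at 24 °C. Another period gene, PER1 (ENSDARG00000056885), differed between the temperatures in the joint test (adjusted p = 0.0168), with log2 fold changes of 1.08, -0.72 and -1.87 at 24, 28 and 32 °C. The repressors NR1D1 (adjusted p = 0.0398; 1.42, 0.16 and -1.30) and BHLHE40 (adjusted p = 0.0307; 0.63, 0.01 and -0.66) differed in the same order.

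A list of light-inducible genes held mostly DNA repair genes, with tefa, lonrf1, HMGB3, RRM2 and PARL beside them. It too was chosen with earlier results of these data known, so its counts beside those of all genes are description only. Of its 21 tested members, 0 were called by edgeR and 1, ERCC6, by DESeq2, while 7 had an unadjusted p under 0.05, all higher, against 1.33% of all genes. The 5 members higher at all temperatures were the repair genes ERCC6, cry5 and NEIL1 with tefa and lonrf1, and 2 were lower (POLK and 1 HMGB3 gene), against 6.5% and 12.6% of all genes. The median log2 fold change was 0.01, and -0.11 with library totals, where 5 members were higher and 5 lower. cry5 (ENSDARG00000019498), the 6-4 photolyase of zebrafish, stood at 2.62, 2.34, 4.15, 6.35 and 9.92 CPM in 28 °C controls and at 14.2, 11.7, 17.0, 27.5 and 15.1 CPM in 28 °C LPS fish. At 32 °C it stood at 4.40, 1.78, 4.17, 3.24 and 6.96 CPM in controls and at 20.3, 17.0, 12.7, 24.9 and 5.52 CPM with LPS. At 24 °C the values were 1.09, 2.2, 19.8, 2.28 and 7.75 CPM in controls and 4.04, 10.3, 4.14, 8.56 and 8.95 CPM with LPS. The groups were apart at 28 °C, 1 LPS library fell among the controls at 32 °C, and at 24 °C control replicate 4 exceeded every LPS library. The log2 fold change was 1.29 ± 0.36 (0.12, 1.76 and 1.97 by temperature, adjusted p = 0.897).

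The same 24 °C control library, which carried the ovary and pancreas transcripts, stood apart in other genes of this list. cry-dash (ENSDARG00000002396), a photolyase relative, read 39.1 CPM there and 10.8 to 12.6 CPM in the other 4 controls of 24 °C. DDB2 (ENSDARG00000041140), a sensor of ultraviolet damage, read 40.8 CPM there and 7.54 to 10.1 CPM in the other 4. Their log2 fold changes over all libraries were 0.67 ± 0.22 and 0.69 ± 0.27 (adjusted p = 0.897 for both), with -0.16 and -0.30 at 24 °C. In the fit without that library, 6 genes passed of 18067 (0.0332%), all higher with LPS. They were PER2 (1.41), CRY1 (0.94), ERCC6 (0.54, adjusted p = 0.0113), cry5 (1.64, adjusted p = 0.0119), cry-dash (0.88, adjusted p = 0.0119) and DDB2 (0.99, adjusted p = 0.0119). With 2 further libraries left out, the 32 °C control replicates 2 and 8, the calls were PER2 and CRY1 alone, with ERCC6 at 0.53 (adjusted p = 0.103). In the fit without 24 °C control replicate 4 alone, 9 of the 21 listed light-inducible genes were higher and 2 lower at all temperatures, where 18.7% of all genes kept one direction and 8.2% were higher. The part of ovary or pancreas tissue in these values was not tested.

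**Figure D2:**
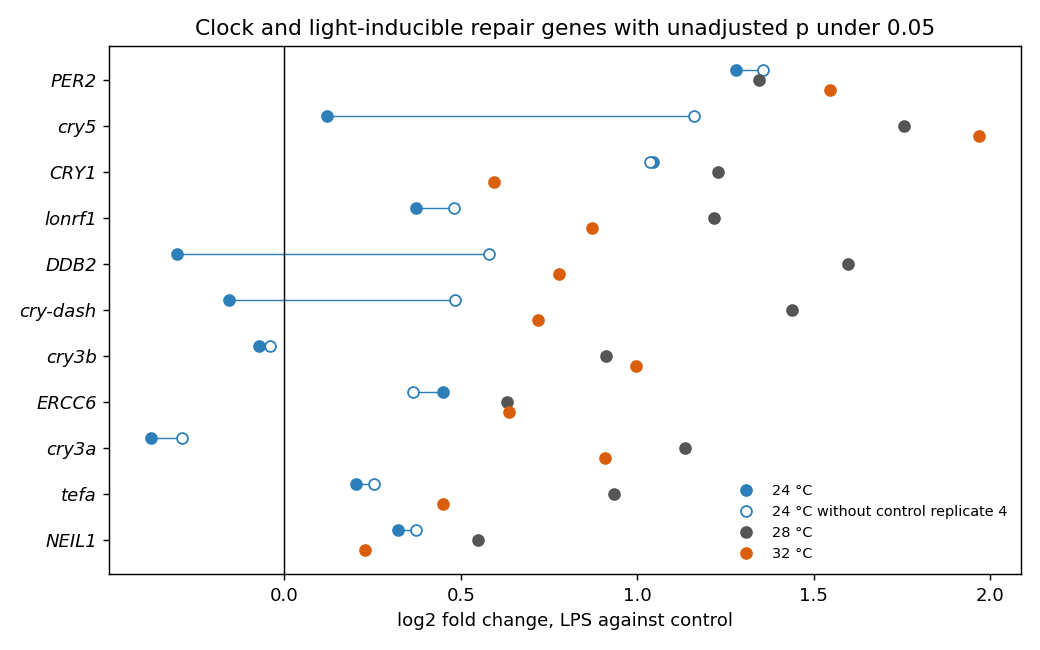
Log2 fold change (LPS against control) of the 11 members of the clock and light-inducible lists with an unadjusted p under 0.05; filled points are the fits at 24, 28 and 32 °C, and open points the 24 °C fold change without control replicate 4. Leaving out that library moved cry5 from 0.12 to 1.16 and DDB2 from -0.30 to 0.58 at 24 °C, and moved PER2 from 1.28 to 1.36.

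Agreement in sign between temperatures was low over the genome. The LPS fold change had the same sign in 36.5% of genes at 24 and 28 °C, in 55.3% at 24 and 32 °C and in 46.6% at 28 and 32 °C. The joint test found 65 genes (0.364%) whose response differed between temperatures, and 0 of these kept one direction, while 3047 genes (17.1%) had an unadjusted p under 0.05 in that test. By the same edgeR test, 3 genes passed at 24 °C (0.0168%), 2 at 28 °C (0.0112%) and 1 at 32 °C (0.00561%), and 16.9%, 8.19% and 7.37% of genes had an unadjusted p under 0.05. An unadjusted p under 0.05 at all 3 temperatures with one direction was found for 3 genes (0.0168%), which were PER2, CRY1 and ERCC6. Genes of one direction mostly had small values, with a median absolute log2 fold change of 0.34. The genes higher at all temperatures had a median level of 13.3 CPM and those lower at all a median of 4.1 CPM, against 11.4 CPM for genes of mixed direction.

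The balance of higher and lower genes depended on the scaling. With TMM, 34% of the one-direction genes were higher. With library totals in place of TMM, 4913 genes (27.5%) kept one direction, 418 higher (2.34%) and 4495 lower (25.2%), so that 8.51% of them were higher. The median log2 fold change of all genes then moved from -0.04 to -0.14. Without the 3 libraries that stood apart (24 °C control replicate 4 and 32 °C control replicates 2 and 8), 2995 genes (16.4%) kept one direction, 1410 higher (7.74%) and 1585 lower (8.7%), and 47.1% of them were higher. Of 3410 genes of one direction with all libraries that were also tested without these 3, 1968 kept that direction, 812 higher and 1156 lower. PER2 and CRY1 were called under each of these settings.

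A change of at least 2-fold at all 3 temperatures was fitted for 29 genes (0.163%), of which 3 (0.0168%) reached 5 CPM in the higher treatment. PER2 was 1 of the 3. CYP11A1 (ENSDARG00000002347), the first enzyme of steroid hormone synthesis, was fitted lower (-7.11, -2.01 and -1.28 by temperature), but its control value of 88.1 CPM in 24 °C control replicate 4 stood against 0 to 0.27 CPM in the other 4 controls of that group. At 28 °C it ran from 0 to 0.46 CPM in controls and from 0 to 0.24 CPM with LPS. At 32 °C it ran from 0.06 to 1.13 CPM in controls and from 0 to 0.78 CPM with LPS. CYP11A1 thus reached 5 CPM only through that 24 °C library. The clone-named gene si:ch211-236p5.3 (ENSDARG00000086418) was fitted higher (1.55, 1.121 and 4.73). It read 31.9 CPM in 1 control at 24 °C and 21.6 CPM in 1 control at 28 °C. Among LPS libraries it read 50.1 and 58.3 CPM in 2 at 24 °C, 53.7 CPM in 1 at 28 °C and 36.0 and 92.9 CPM in 2 at 32 °C, and every other library of either treatment was at or under 2.43 CPM. Neither passed the shared test (adjusted p = 0.897 for both).

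Among one-direction genes with a gene symbol and at least 5 CPM, the 12 higher with the smallest p were PER2, CRY1, ERCC6, lonrf1, SERPINH1, cry5, parla, asap2b, raraa, hmgn3, ARPIN and ACADS. All but PER2 and CRY1 missed the threshold. SERPINH1 (ENSDARG00000019949), the collagen chaperone HSP47, had a median of 116 CPM in controls and 156 CPM in LPS fish, with a log2 fold change of 0.56 ± 0.16 (0.65, 0.39 and 0.65). parla, a rhomboid protease of mitochondria, had 0.72 ± 0.22, and raraa, a retinoic acid receptor, 0.61 ± 0.21. asap2b, which encodes a GTPase-activating protein for Arf, had 0.44 ± 0.15 with steady values by temperature (0.47, 0.35 and 0.50). hmgn3, a nucleosome-binding protein gene, had 0.41 ± 0.14, ARPIN, an inhibitor of the Arp2/3 actin nucleator, 0.38 ± 0.13, and ACADS, a mitochondrial acyl-CoA dehydrogenase, 0.32 ± 0.11. Each of these 7 had an adjusted p of 0.897.

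The 12 lower genes with the smallest p were prr36a, PIK3R3, ftr82, frya, PRICKLE1, EPB41L5, ccn4a, CDC42EP3, ankrd50l, GLDC, CGNL1 and ppp1r12c, all with an adjusted p of 0.897. EPB41L5, a FERM-domain protein of epithelial polarity, had a log2 fold change of -0.52 ± 0.15 (-0.54, -0.72 and -0.29), and 5 of 15 LPS libraries lay below every control. CGNL1, a protein of cell junctions, had -0.40 ± 0.13 (-0.32, -0.54 and -0.34), also with 5 of 15 LPS libraries below every control. PRICKLE1 (ENSDARG00000045694), of planar cell polarity, had -0.53 ± 0.15, CDC42EP3, an effector of the GTPase CDC42, -0.55 ± 0.17, and ppp1r12c, a myosin phosphatase subunit, -0.31 ± 0.10 with -0.32, -0.31 and -0.31 by temperature. PIK3R3, a regulatory subunit of PI3-kinase, had a median of 14.8 CPM in controls (9.65 to 32.3) and 10.3 CPM in LPS fish (7.06 to 14.5), with a log2 fold change of -0.55 ± 0.14 that was -0.58, -0.49 and -0.57 by temperature. ccn4a, a matricellular CCN family gene, had -1.18 ± 0.33, ftr82, a fish-specific TRIM gene, -0.58 ± 0.16, and frya -0.56 ± 0.15.

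Values of some of these 12 genes moved with 24 °C control replicate 4. GLDC, an enzyme of glycine breakdown, read 91.9 CPM in that library and 3.32 to 5.66 CPM in the other 4 controls, and its log2 fold change went from -1.47 ± 0.46 to -0.68 without it. prr36a, with the smallest p among the lower genes, read 93.5 CPM there and 18.2 to 49.6 CPM in the other 4, and went from -0.82 ± 0.20 to -0.62. PIK3R3 read 32.3 CPM there, 9.65 to 19.2 CPM in the other 4 and 9.74 to 14.5 CPM in the 24 °C LPS libraries. EPB41L5 read 46.2 CPM there, 15.4 to 33.4 CPM in the other 4 and 13.1 to 26.0 CPM in the 24 °C LPS libraries. The 24 °C fold changes given for PIK3R3 and EPB41L5 include that library, and so does their evenness over the temperatures. For both genes the other 4 controls overlapped the LPS libraries of 24 °C. ccn4a did not depend on that library in this way, with -1.18 in all libraries and -1.23 without it.

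**Figure D3:**
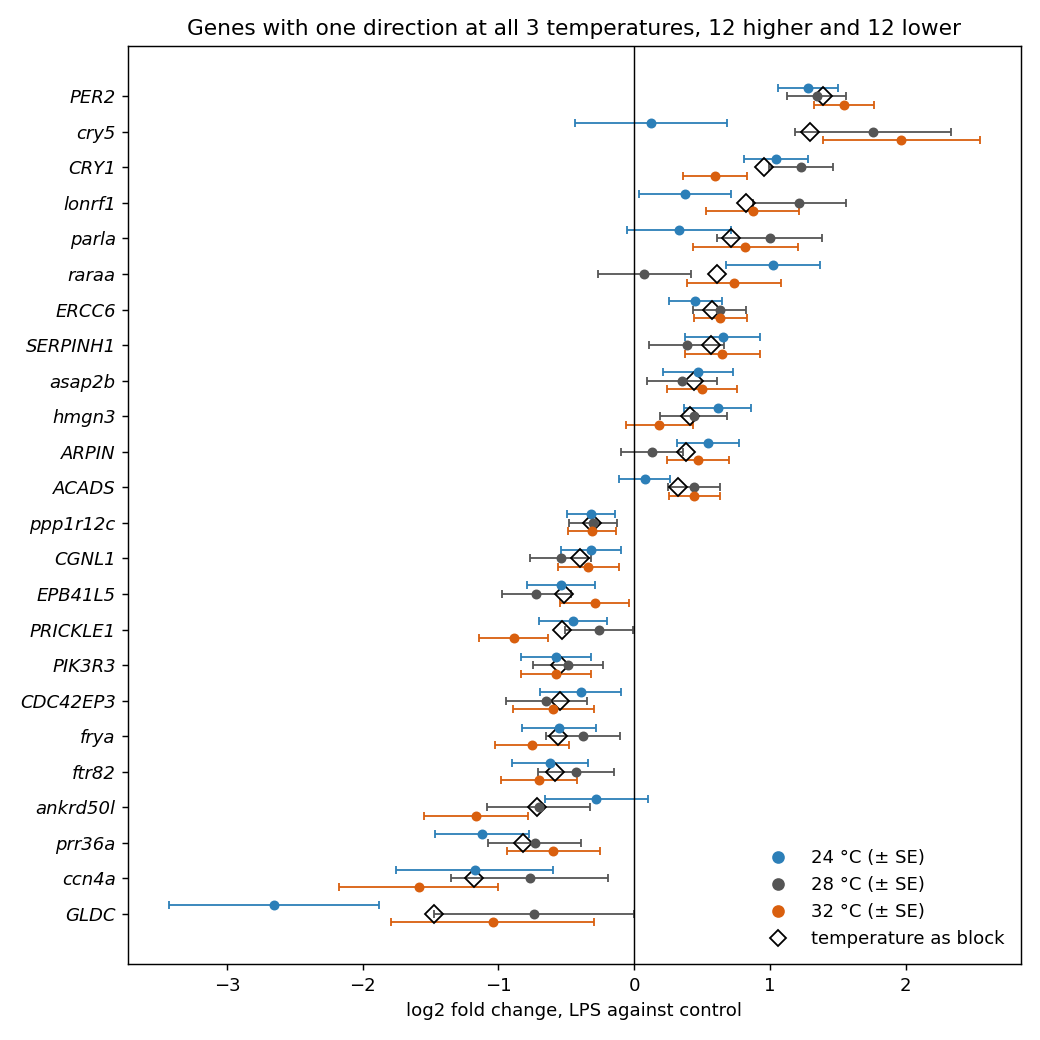
Log2 fold change (LPS against control) of the 12 higher and 12 lower genes at 24, 28 and 32 °C (points with SE bars) and over all temperatures with temperature as a block (open diamonds). PER2 has the highest shared value, 1.39, and GLDC the lowest, -1.47, where the 24 °C point lies far from the other 2.

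Cytokine and chemokine genes are the textbook targets of LPS. Of 46 tested, 0 were called and 0 had an unadjusted p under 0.05 with edgeR (0 were called by DESeq2), 2 were higher and 4 lower at all temperatures (13.0% of one direction, against 19.1% of all genes), and the median log2 fold change was 0.12, or -0.05 without the 3 libraries that stood apart. That median was 0.75 at 24 °C, -0.58 at 28 °C and 0.17 at 32 °C. il1b (ENSDARG00000098700), the interleukin-1 beta gene, read 15.0, 57.0, 16.3, 42.6 and 38.13 CPM in 24 °C controls and 92.4, 54.2, 65.6, 37.8 and 57.0 CPM in 24 °C LPS fish. At 28 °C it read 40.0, 82.4, 94.7, 126 and 228 CPM in controls and 13.6, 30.2, 86.8, 16.5 and 85.7 CPM with LPS, and at 32 °C 14.9, 30.7, 40.5, 15.1 and 79.0 CPM in controls and 121, 28.6, 53.6, 18.4 and 89.9 CPM with LPS. The groups overlapped at each temperature, with fold changes of 0.86, -1.29 and 0.79 on the log2 scale. The chemokine cxcl8a (adjusted p = 0.0334; 1.56, -1.71 and 1.62) and the tumour necrosis factor gene tnfb (adjusted p = 0.0395; 1.23, -1.25 and 0.95) passed the joint test of a difference between temperatures. So did il34, a ligand of the macrophage receptor CSF1R, with another order of values (adjusted p = 0.0376; 0.91, -0.29 and -0.28), and il12bb, an interleukin-12 subunit gene with means under 1 CPM (adjusted p = 0.0412; 2.42, -4.49 and 1.73).

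The chemokine genes that kept one direction did so below the threshold. cxcl8b.3 (ENSDARG00000099169), of the family of interleukin-8, had a mean of 29.1 CPM in controls and 48.0 CPM in LPS fish, with log2 fold changes of 0.71, 0.63 and 0.79 by temperature (0.71 ± 0.40 shared, adjusted p = 0.897). Its libraries ranged from 2.94 to 85.1 CPM in controls and from 9.32 to 141 CPM in LPS fish, so the groups overlapped widely. ccl38.1 had 0.54, 0.52 and 0.52 (0.53 ± 0.30 shared, adjusted p = 0.897). The 4 members lower at all temperatures were cxcl11.8 (-1.24 ± 0.62), ccl20b (-0.71 ± 0.60), ccl34b.1 (-0.47 ± 0.28) and cxcl32b.1 (-0.14 ± 0.19). Of the 6, cxcl11.8 had the largest fold change and the smallest unadjusted p (0.0561), at means of 1.18 CPM in controls and 0.505 CPM in LPS fish.

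Upstream of the cytokines, 35 genes of LPS sensing and Toll-like receptor signalling had 2 members higher and 4 lower at all temperatures. Beside these and the other list counts of this paragraph, 6.5% of all genes were higher and 12.6% lower at all temperatures. The receptors NOD1 (-0.29 ± 0.20) and NOD2 (0.12 ± 0.09) kept opposite signs. NF-kB subunits, kinases and inhibitors had 0 of 28 higher and 6 lower (REL, IKBKB, ikbkg, CYLD, RELA and nfkb1), a share of members lower to set against 12.6% of all genes, and 0 of these 6 had an unadjusted p under 0.05. Immediate early genes had 0 of 43 higher and 3 lower, among them BTG2 (-0.58 ± 0.24). Acute phase and antimicrobial genes had 0 of 29 higher and 4 lower, complement genes 0 of 29 higher and 4 lower, and interferon response genes 3 of 48 higher and 3 lower. The complement component c3a.1 had a log2 fold change of -0.94 ± 0.44 with -0.99, -0.83 and -1.01 by temperature, but its values ran from 3.01 to 246 CPM in controls and from 5.01 to 71.2 CPM in LPS fish. Liver makes much of this protein, and liver markers summed to between 40.7 and 3799 CPM over the controls and to between 63.2 and 546 CPM over the LPS libraries. The complement list's median went from -0.43 to -0.06 without the 3 libraries that stood apart. The part of liver tissue in it was not tested. In these 6 lists edgeR and DESeq2 called 0 members. The members with an unadjusted p under 0.05 were the inflammasome caspase gene caspb (1.5) and the NF-kB inhibitor NFKBIE (0.22, of mixed direction) with values above 0, and TLR2 (-0.81), tlr5a (-0.48), BTG2, c3a.1 and gbp2 (-0.43) with values below 0.

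Medians of the immune cell lists changed sign between temperatures. Neutrophil markers had medians of 0.58, -0.73 and 0.52 at 24, 28 and 32 °C, and macrophage markers 0.01, 0.83 and -1.18. B and plasma cell genes had 0 of 26 members of one direction. Among T and NK cell genes, 4 of 43 were higher and 9 lower, against 6.5% and 12.6% of all genes, with a median of -0.13, and 1 was higher and 15 lower with library totals. The higher members were nkl.4 (0.37 ± 0.24) and nkl.3 (0.12 ± 0.35), of the NK-lysin family, the kinase gene txk (0.09 ± 0.21) and the granzyme gene gzmk (0.10 ± 0.28). Examples of the lower members were il2rb, a chain of the interleukin-2 receptor (-0.66 ± 0.33), the T cell kinase ZAP70 (-0.31 ± 0.18) and the transcription factor RUNX3 (-0.20 ± 0.13). Genes of MHC and antigen presentation split into 5 higher and 4 lower of 24 (1 and 4 without the 3 libraries that stood apart), with the peptide transporter gene TAP1 at -0.39 ± 0.21 and the immunoproteasome subunit PSMB9 at 0.46 ± 0.34. GTPase regulators of leukocytes had 2 of 29 higher and 8 lower, or 2 and 5 without the 3 libraries, including arhgef6 (-0.20 ± 0.08), ELMO1 (-0.22 ± 0.10) and RASGRP2 (ENSDARG00000099092, -0.56 ± 0.26), which encode activators of small GTPases or their partners. None of these single genes passed edgeR's test (adjusted p of 0.897 or more).

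**Figure D4:**
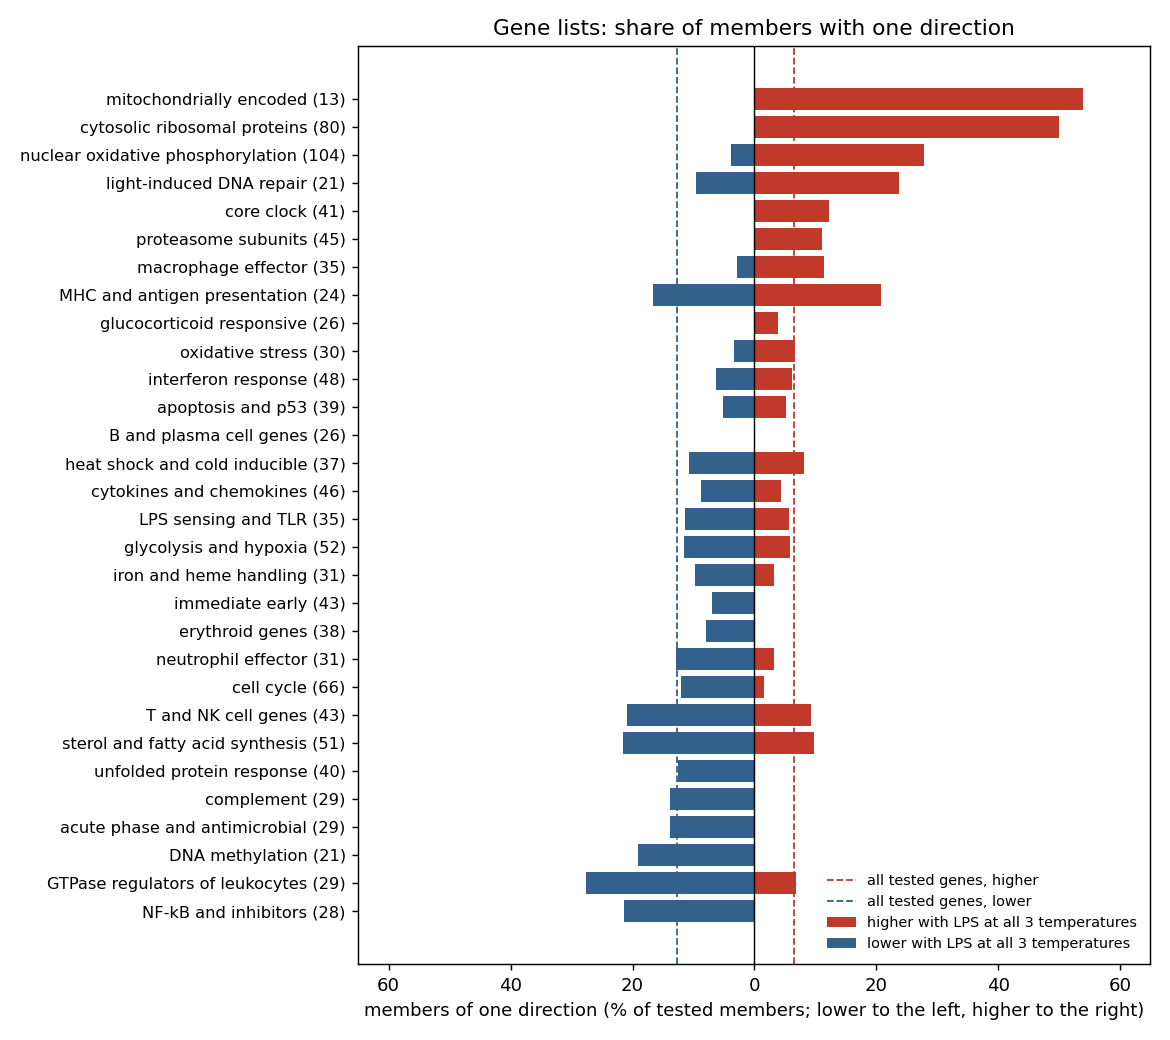
Share of the tested members of each of 30 gene lists that were higher (red, right) or lower (blue, left) with LPS at all 3 temperatures, in percent, with the number of tested members in brackets; dashed lines mark the shares over all tested genes, 6.5% higher and 12.6% lower. Mitochondrially encoded genes, ribosomal proteins and nuclear genes of oxidative phosphorylation have the highest shares of higher members, under TMM scaling.

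Among the 30 lists, those of translation and respiration held the most members higher at all temperatures under TMM scaling. Of 80 cytosolic ribosomal protein genes, 40 were higher and 0 lower at all temperatures, against 6.5% and 12.6% of all genes, and 79 of 80 had a shared log2 fold change above 0. Their median was 0.17 over all temperatures and 0.23, 0.26 and 0.00 at 24, 28 and 32 °C. None was called (edgeR 0, DESeq2 0), and 3 had an unadjusted p under 0.05. RPS12 had a log2 fold change of 0.24 ± 0.10 (0.34, 0.26 and 0.12), and rplp2l, of the ribosomal stalk family, 0.32 ± 0.13 (0.45, 0.28 and 0.22). Of the 13 mitochondrially encoded genes, 7 were higher and 0 lower at all temperatures with a median of 0.27 (0.28, 0.03 and 0.61 by temperature). MT-CO1, a subunit of cytochrome c oxidase, had 0.26 ± 0.14 and MT-CYB, of complex III, 0.31 ± 0.17. Of 104 nuclear genes of oxidative phosphorylation, 29 were higher and 4 lower with a median of 0.15 (0.23, -0.05 and 0.26 by temperature). At 28 °C, 39 of the 104 had a log2 fold change above 0, against 88 at 24 °C and 92 at 32 °C. SDHA, of complex II, had 0.23 ± 0.08, and its assembly factor gene SDHAF3 had -0.46 ± 0.17. Together these 3 lists gave 76 of the 1160 genes higher at all temperatures (6.55%).

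These counts depend on where the scaling puts 0. With library totals in place of TMM, 4 ribosomal protein genes, 0 mitochondrially encoded genes and 1 nuclear oxidative phosphorylation gene were higher at all temperatures, against 2.34% of all genes. The list medians were then 0.05, 0.15 and 0.06 against -0.14 over all genes, where with TMM they were 0.17, 0.27 and 0.15 against -0.04. As a share of all counts, ribosomal protein transcripts took 5.05% ± 0.78 in controls and 6.24% ± 1.18 in LPS fish at 24 °C (SD, n = 5 each). They took 6.14% ± 1.22 and 6.17% ± 0.61 at 28 °C, and 6.54% ± 1.04 and 5.96% ± 0.66 at 32 °C. The ranges of the treatments overlapped at each temperature. At 28 °C mitochondrially encoded transcripts took 3.56% ± 1.15 in controls and 3.18% ± 0.50 in LPS fish. Nuclear oxidative phosphorylation transcripts took 0.84% ± 0.09 and 0.68% ± 0.16 there. The mean shares of both lists were higher with LPS at 24 and 32 °C. With DESeq2's size factors 46 ribosomal protein genes, 7 mitochondrially encoded genes and 26 nuclear oxidative phosphorylation genes were higher at all temperatures.

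**Figure D5:**
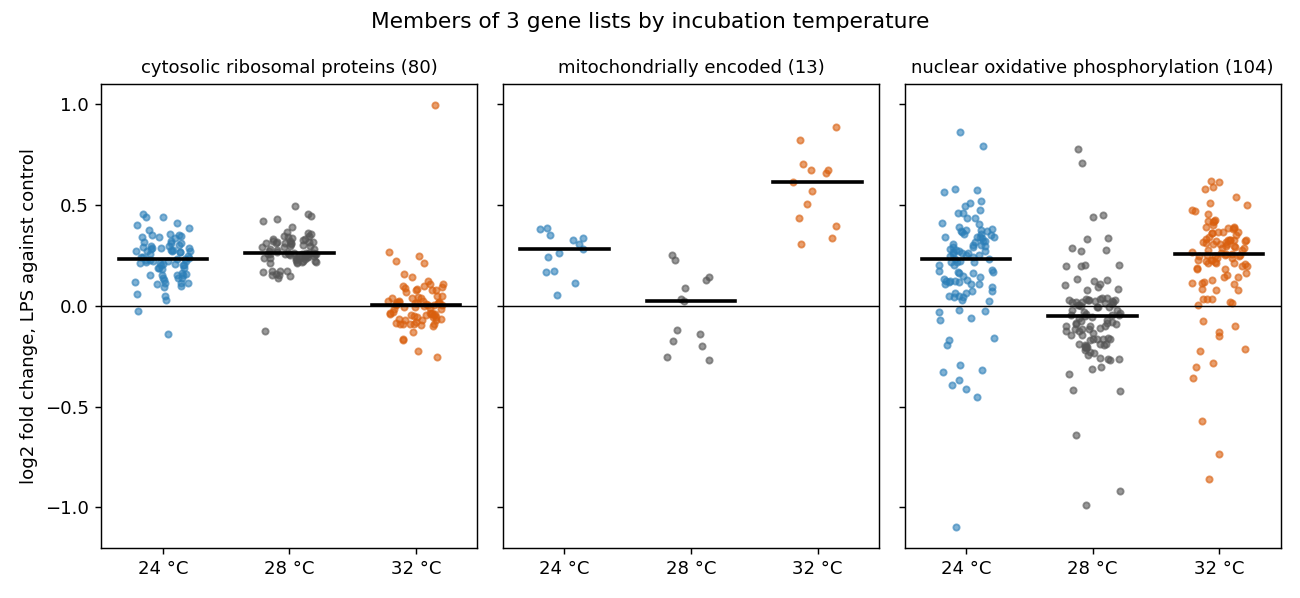
Log2 fold change (LPS against control, TMM scaling) of each member of 3 gene lists at 24, 28 and 32 °C; points are genes, bars the median of the list, and members are not independent replicates. Ribosomal protein genes centre on 0.23, 0.26 and 0.00, and mitochondrially encoded genes on 0.28, 0.03 and 0.61.

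Of 51 genes of sterol and fatty acid synthesis and handling, 5 were higher and 11 lower at all temperatures, against 6.5% and 12.6% of all genes, with a median of -0.13, and without 24 °C control replicate 4 these numbers were 6 and 9 with a median of -0.00, and without the 3 libraries that stood apart they were 5 and 4 with a median of 0.01. ACACA, the first enzyme of fatty acid synthesis, had -0.43 ± 0.17 (-0.53, -0.36 and -0.41), and FASN, the fatty acid synthase, -0.28 ± 0.11 (-0.35, -0.18 and -0.33). PLIN2, a lipid droplet coat protein, had 0.49 ± 0.19 (0.53, 0.49 and 0.44). Each overlapped between treatments, and each had an adjusted p of 0.897. Of 66 cell cycle genes, 1 was higher and 8 lower with a median of -0.30, which was -0.01 without 24 °C control replicate 4. Unfolded protein response genes had 0 of 40 higher and 5 lower, and heat shock and cold-inducible genes 3 of 37 higher and 4 lower. One direction was kept by 13.6%, 12.5% and 18.9% of these 3 lists, against 19.1% of all genes. In the heat shock list SERPINH1, the chaperone gene hsp90aa1.1 (0.96 ± 0.31) and HSPH1 (0.35 ± 0.17, of mixed direction) had an unadjusted p under 0.05 with values above 0, and hsf1, the master regulator of the heat shock response, had one with -0.41 ± 0.17.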

How the data were processed

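Gene counts per library were deposited by the authors as whole numbers for 31901 gene IDs, and 29178 of these were paired with a symbol. The submitters' processing notes name bcl2fastq, cutadapt 1.12, FastQC 0.11.5, STAR, DESeq2 1.11.1 and the build GRCz11. No source used here names the counting program or its strand setting, and genes that overlap or share reads with a near-identical copy are uncertain. Of the tested genes, 1893 share a symbol with another.

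Groups came from the sample labels. Genes were kept by edgeR's filter on the 6 groups (minimum count 10), which left 17841. Counts were scaled by TMM and tested with edgeR 4.0.16 (robust quasi-likelihood fit, R 4.3.3) in a model of temperature plus treatment with 26 residual degrees of freedom. Fold changes at each temperature and the joint test of their difference came from a fit of the 6 group means. P-values were adjusted over all tested genes by the Benjamini-Hochberg method, with a threshold of 0.05. A standard error is the size of the log2 fold change over the root of its F statistic. Per-gene CPM use TMM library sizes, log2 CPM add a prior count of 2, and marker sums are CPM of the library total.

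Named genes were those called, the 12 with the smallest p in each direction among one-direction genes with a symbol and at least 5 CPM, up to 3 such members of each list, and the 5 genes most like a called gene. Other genes given with values (list members of mixed direction or lower rank, GYS2, CYP11A1 and the clone-named gene) were chosen after their values were seen. The lists, 12 of them of cell type or organ markers, and their members were chosen with earlier results of these data known. They were matched by symbol, regardless of case, and by paralog stem. Tested members were found for 41 lists, and the testis markers had no tested member. Alternatives were DESeq2 1.42.0, limma voom (limma 3.58.1) with quality weights, other filters and scalings, and fits that left out libraries or temperatures. Scaling by library totals was added after seeing the data. The procedure was tested on simulated counts.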

Additional observations from a re-analysis of the deposited data

Results flagged for a closer look

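In 26 of 240 group values examined, 1 of 5 libraries lay far from the other 4, by the ratio of its gap to the group's range (0.71 or more). For 5 independent, normally distributed values, chance alone flags about 1 group in 20. CPM and marker sums here were skewed and came from the same libraries, so that rate need not hold for them.

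In 24 °C control replicate 4, ovary markers summed to 2947 CPM (1.96 to 25.2 in the other 4), acinar pancreas markers to 36670 CPM (277 to 614), endocrine pancreas markers to 313 CPM (6.57 to 54.3) and testis markers to 118 CPM (0.19 to 0.57). The same library had GLDC at 91.9 CPM, CYP11A1 at 88.1 CPM and 22887 genes detected (20831 to 21083). Of the testis markers, piwil1 and ddx4 reached at most 49.1 and 67.3 CPM in any library. The testis markers sycp3 and dmrt1 reached at most 0.81 and 0.90 CPM, so the sum of 118 CPM did not come from the whole list. Whether testis tissue was present was not tested. In 32 °C control replicate 2, 28134 genes were detected (20288 to 20806), the total was 15586276 counts, the lowest of its group, and testis markers summed to 3.53 CPM. Liver markers summed to 3799 CPM in 32 °C control replicate 8, to 792 CPM in 24 °C control replicate 5 and to 294 CPM in 24 °C LPS replicate 8.

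Acinar pancreas markers also stood apart at 19835 CPM in 28 °C control replicate 7, 30648 CPM in 28 °C LPS replicate 8 and 8561 CPM in 32 °C LPS replicate 5. Erythroid markers summed to 83075 CPM in 24 °C LPS replicate 4 (39366 to 47313 in the others).

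Among the genes named, CRY1 read 221 CPM (90.2 to 123 in the others) and lonrf1 238 CPM (82.7 to 111) in 32 °C LPS replicate 4. In 28 °C LPS replicate 2, prr36a read 22.7 CPM and ppp1r12c 37.8 CPM. In 28 °C LPS replicate 8, ftr82 read 29.1 CPM, and in 24 °C LPS replicate 2, SERPINH1 read 203 CPM. The clone-named si:ch211-236p5.3 stood apart at 31.9 CPM in 24 °C control replicate 2, 21.6 CPM in 28 °C control replicate 2 and 53.7 CPM in 28 °C LPS replicate 3. Of the 96 genes chosen by the naming rule, 0 passed edgeR's joint test of a difference between temperatures (lowest adjusted p = 0.249). The rule took genes of one direction at all 3 temperatures. Of the 65 genes (0.364%) that passed among all tested genes, 0 kept one direction, so this outcome followed from the choice of genes.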

How the results depend on the processing

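PER2 was called in each of 45 settings and CRY1 in 42. The number of genes called moved from 2 to 4 with DESeq2, 4 with limma voom, 8 without the 24 °C libraries (5 higher and 3 lower) and 6 without 24 °C control replicate 4, and it was 2 with library totals, with another filter and without the 3 libraries that stood apart. Over the 30 fits that each left out 1 library it ran from 2 to 6, with a log2 fold change of 1.36 to 1.46 for PER2 and 0.90 to 1.01 for CRY1. Genes of one direction numbered 5315 of 29431 without a filter on low counts and 2914 to 3924 when 1 library was left out. With the replicate number as a block, 1 gene was called, PER2, and CRY1 had a log2 fold change of 0.89 (adjusted p = 0.174). Over 9 pairs of same-numbered LPS and control libraries of one temperature the correlation of deviations from the group means ran from -0.14 to 0.44. It exceeded 0.1 in 3, so the numbers were not taken to pair the samples. A second count took same-numbered libraries of any other group and temperature as partners. Of 27 libraries with such a partner, 10 correlated best, among libraries of the other groups, with one of the same number. That count was not set against a chance rate, and whether the numbers mark a shared factor was not tested.

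Among single genes named for a list, GAPDH (ENSDARG00000043457) went from -1.13 to 0.027 without the 3 libraries and to 0.28 with limma voom, and SQSTM1 from 0.09 to -0.042 with library totals. MRC1 went from -0.05 to 0.029 without the 3 libraries and ran from -0.18 to 0.11 over the fits without 1 library. GAPDH read 743 CPM in 24 °C control replicate 4, against 6.89 to 34.6 CPM in the other controls of 24 °C. It read 128 CPM in 32 °C control replicate 8. The cause of the moves of these genes was not tested. The common biological coefficient of variation was 0.521. With 15 LPS and 15 control libraries such a spread limits which shared changes can pass, by an amount not reported here.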
